A study of Mus musculus with 8 samples.

Results

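*Sox10*, *Erbb3*, *Foxd3* and *Ednrb* are 4 genes of the neural crest and of the Schwann cell lineage that grows out of it. They were chosen by name, as genes known for this lineage, but with earlier results of these data known. Their share of calls is therefore not independent of these data. They are 4 of the 43346 gene identifiers counted in a comparison of notochord-derived cells (NDCs) before and after the nucleus pulposus (NP) of the intervertebral disc forms. All samples came from Shh-cre;ROSA:YFP mice, in which Cre driven by *Shh* turns on a yellow fluorescent protein in cells that express or once expressed *Shh*. At embryonic day 12.5 (E12.5) whole notochords were dissected and placed in TRIzol without sorting, and at birth (P0) NP cells were released mechanically, strained and sorted for the fluorescent protein. Each of the 4 samples at E12.5 (litters NDP10.2, NPD3, NPD4 and NPD9.2) and of the 4 at P0 (NPD26, NPD27, NPD28 and NPD30) pooled the animals of a single litter. Stage and isolation method changed together and cannot be told apart. In a bulk library fewer cells of a type and less RNA per cell also cannot be told apart.

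The neural crest leaves the dorsal neural tube and gives rise to Schwann cells and other glia, melanocytes, and sensory, autonomic and enteric neurons. It is a lineage separate from the notochord, although crest cells migrate through the somites that flank the notochord and Schwann cell precursors line the young spinal nerves. *Sox10* and *Foxd3* encode transcription factors of the migrating crest and its glia. *Erbb3* encodes a receptor for neuregulins on Schwann cell precursors, and *Ednrb* encodes a receptor for endothelins on melanocyte and enteric precursors.

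Each E12.5 litter had 4442775 to 7180221 reads counted on genes, and each P0 litter 6371842 to 8904050. Values are given in CPM, the count of a gene scaled to the size of its library. A floor of 3 counts was worth 0.353 (NPD28) to 0.738 CPM (NPD9.2) depending on the litter and covers counting error only. Of the notochord markers, *T*, the notochordal transcription factor brachyury, had 242 to 942 CPM in the E12.5 litters and 574 to 2323 CPM in those of P0, whereas *Noto*, another notochordal factor, was at or under 0.433 CPM in all 8 litters. *Shh* was 141-fold lower at P0 (log2 fold change -7.14 ± 0.95 SE, edgeR adjusted p = 0.000742), with a log2 fold change of -7.73 when NPD30 was left out. At P0 *Shh* had 0.157, 3.89, 7.89 and 11.8 CPM in NPD26, NPD27, NPD28 and NPD30, and its 1 count in NPD26 was under the floor.

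On GRCm38 with the Gencode M21 annotation, *Sox10* (ENSMUSG00000033006.9) lies on the minus strand at chr15:79154908-79165240 and *Erbb3* (ENSMUSG00000018166.8) on the minus strand at chr10:128567523-128589652. *Foxd3* (ENSMUSG00000067261.4) lies on the plus strand at chr4:99656299-99658622 and *Ednrb* (ENSMUSG00000022122.10) on the minus strand at chr14:103814625-103844402. The small RNA gene *Mir6917* lies inside *Erbb3* and *Gm23366* inside *Foxd3*, and whether the counting used strand is not given in the sources used here. The RefSeq promoter sequences, also on GRCm38.p6, matched 2 of the 4 genes, *Foxd3* and *Ednrb*. The 250 bases before the RefSeq starts are shown because these are the windows available for genes of the set, and capitals mark a match to any motif searched. The *Foxd3* window is chr4:99656049-99656298 on the plus strand and the *Ednrb* window is chr14:103843702-103843951 on the minus strand. The *Ednrb* window lies inside the span of the gene in Gencode M21, not upstream of it, and overlaps no exon.
Foxd3: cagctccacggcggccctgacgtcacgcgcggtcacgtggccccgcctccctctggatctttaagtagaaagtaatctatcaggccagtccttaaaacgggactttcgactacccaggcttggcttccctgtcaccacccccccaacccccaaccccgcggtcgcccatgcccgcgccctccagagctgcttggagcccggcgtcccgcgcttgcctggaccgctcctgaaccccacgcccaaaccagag
Ednrb: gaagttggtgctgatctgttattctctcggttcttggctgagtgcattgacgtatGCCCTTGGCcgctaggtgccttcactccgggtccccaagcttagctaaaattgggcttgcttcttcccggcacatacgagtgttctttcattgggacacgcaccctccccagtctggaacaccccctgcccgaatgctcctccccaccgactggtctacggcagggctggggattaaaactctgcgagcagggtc

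The *Foxd3* window was richer in G and C, at 65.6% with 21 CpG dinucleotides, than the *Ednrb* window, at 56.8% with 11. Both strands were searched for the SOX core motifs ACAAAG and ACAATG, for the AP-2 motif GCCNNNGGC, which reads the same on either strand, and for the Snail E-box CAGGTG. The *Foxd3* window held no match. The *Ednrb* window held a single AP-2 match, GCCCTTGGC, starting at base 56 from its first base. Of 32851 mouse windows of the same length, 16.5% held ACAAAG, 10.7% ACAATG, 13.7% GCCNNNGGC and 17.2% CAGGTG. A match is a run of letters and no evidence of binding, and the absence of these letters says nothing about the factors.

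All 4 genes passed the filter on low counts that left 15467 genes for testing, and 3 of the 4, *Sox10*, *Foxd3* and *Erbb3*, were lower at P0. The background was 12.0% of tested genes called lower at P0, 16.0% called higher and 27.9% called in either direction by edgeR's quasi-likelihood test with Benjamini-Hochberg adjustment over all genes tested, at an adjusted p under 0.05. The same 3 genes had every E12.5 litter above every P0 litter, which held for 14.4% of tested genes, while 15.5% had every P0 litter above every E12.5 litter. *Ednrb* also had a lower mean at P0 but did not pass the test. The calls of *Sox10*, *Foxd3* and *Erbb3* held without the filter on low counts, where 5.97% of genes were lower at P0. The median log2 fold change of the 4 genes was -3.56, beside 0.04 over all genes tested.

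*Sox10*, the transcription factor that marks crest cells and is kept in their glia and melanocyte precursors, had 122, 88.4, 162 and 190 CPM in the E12.5 litters NDP10.2, NPD3, NPD4 and NPD9.2. At P0 it had 13.1, 19.2, 1.77 and 11.2 CPM in NPD26, NPD27, NPD28 and NPD30. The stages did not overlap, NPD9.2 was the highest litter, and NPD28 lay well under the other P0 litters. *Sox10* mRNA abundance was 12.5-fold lower at P0 (log2 fold change -3.64 ± 0.59 SE, edgeR adjusted p = 0.00181).

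*Foxd3*, a forkhead factor that keeps crest cells as progenitors, had the lowest level of the 4 per length. Its CPM was 9.91, 10.5, 30.9 and 31.2 in NDP10.2, NPD3, NPD4 and NPD9.2, and 1.10, 3.17, 0.235 and 0.455 CPM in NPD26, NPD27, NPD28 and NPD30. The E12.5 litters split into a lower pair, NDP10.2 and NPD3, and a higher pair, NPD4 and NPD9.2, and both pairs were above every P0 litter. NPD28 with 2 counts and NPD30 with 3 counts were at or under the floor of 3 counts, so *Foxd3* was not detectable above it in those litters. The fitted difference was 16.6-fold (log2 fold change -4.05 ± 0.75 SE, edgeR adjusted p = 0.00316), and -5.10 on the log2 scale without NPD27 (adjusted p = 0.00115).

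*Erbb3* encodes a receptor with an impaired kinase that signals in a pair with *Erbb2*. Its CPM was 75.2, 92.9, 125 and 168 in NDP10.2, NPD3, NPD4 and NPD9.2 and 5.98, 12.3, 8.59 and 14.7 in NPD26, NPD27, NPD28 and NPD30. NPD9.2 was again the highest litter, but at P0 the order differed from that of the other 3 genes, with NPD30 highest and NPD26 lowest. *Erbb3* was 11.1-fold lower at P0 with the smallest standard error of the 4 (log2 fold change -3.47 ± 0.36 SE, edgeR adjusted p = 0.000179).

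*Ednrb*, the endothelin receptor, had 113, 164, 453 and 390 CPM in NDP10.2, NPD3, NPD4 and NPD9.2. At P0 it had 99.7, 131, 19.7 and 6.37 CPM in NPD26, NPD27, NPD28 and NPD30. The stages overlapped, because NPD27 at P0 exceeded NDP10.2 at E12.5, and the P0 litters fell into a high pair, NPD26 and NPD27, and a low pair, NPD28 and NPD30. The log2 fold change of -2.13 ± 0.83 SE did not pass the test (edgeR adjusted p = 0.084), although DESeq2 (log2 fold change -2.14, adjusted p = 0.0136) and limma-voom (-2.74, adjusted p = 0.0354) called it lower at P0, as they called 15.2% and 12.1% of the genes they tested.

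**Figure D1:**
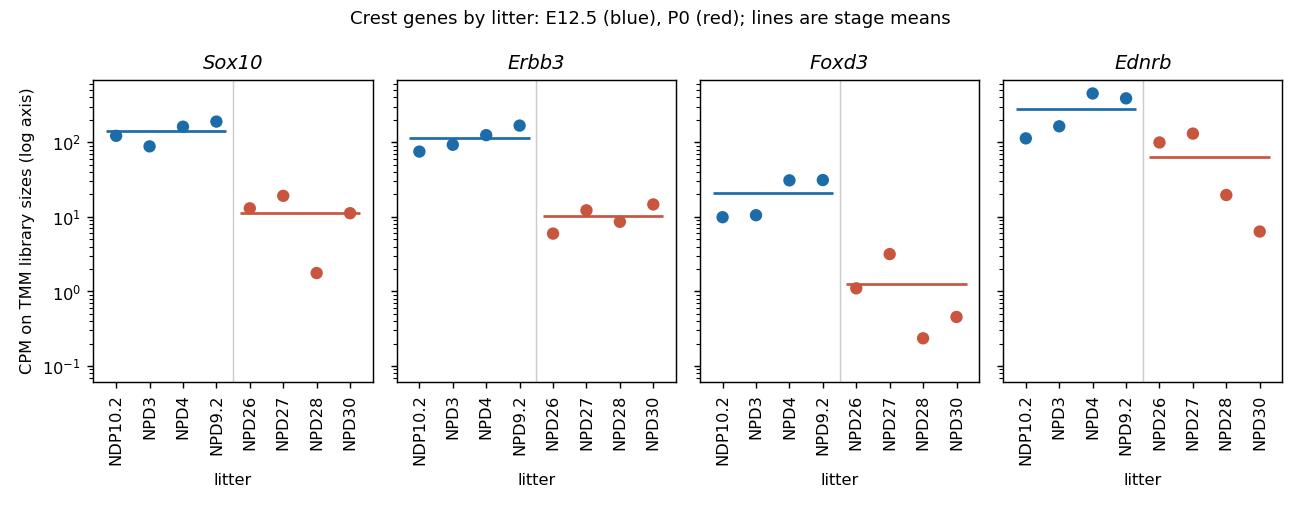
CPM on TMM library sizes (log axis) of *Sox10*, *Erbb3*, *Foxd3* and *Ednrb* in each litter, with E12.5 litters in blue, P0 litters in red and lines at the stage means. The blue and red points do not overlap for *Sox10*, *Erbb3* and *Foxd3*, and overlap for *Ednrb*, where the P0 litters range from 6.37 to 131 CPM.

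A two-sided exact permutation test on the log2 CPM of each gene gave p = 0.0286 for *Sox10*, *Erbb3* and *Foxd3*, the smallest p that 4 litters against 4 can give, and p = 0.0571 for *Ednrb*. Leaving out any of the 8 litters changed no call for the 4 genes. The log2 fold change of *Foxd3* moved between -5.10 and -3.68, and that of *Ednrb* between -2.73 and -1.78, with adjusted p from 0.0724 to 0.191. Each sample is a pool of one litter, so these p-values measure the spread between litters of this mouse line.

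Levels of different genes were compared per kb of exon in Gencode M21, where the exons of *Sox10*, *Erbb3*, *Foxd3* and *Ednrb* span 3051, 6016, 2324 and 4266 bp. At E12.5 the order of mean levels was *Ednrb* with 65.7 ± 39.0 CPM per kb (SD, n = 4), *Sox10* with 46.2 ± 14.6, *Erbb3* with 19.2 ± 6.77 and *Foxd3* with 8.89 ± 5.19. *Ednrb* and *Sox10* did not differ beyond their spread, and *Sox10* was the higher of the pair in NDP10.2. *Sox10*, lowest at 29.0 CPM per kb in NPD3, was above *Erbb3*, highest at 27.9 in NPD9.2, and *Erbb3* overlapped *Foxd3* only through its lowest litter. At P0 the order of means was the same, at 15.1 ± 14.2 CPM per kb for *Ednrb*, 3.71 ± 2.36 for *Sox10*, 1.73 ± 0.643 for *Erbb3* and 0.534 ± 0.576 for *Foxd3* (SD, n = 4). Each neighbour in that order overlapped the next at P0. NPD30 was the only litter of the 8 in which *Ednrb* fell below both *Sox10* and *Erbb3* per kb, at 1.49 CPM per kb against 3.68 and 2.44.

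Ratios between 2 genes within a library address whether the 4 genes moved by different amounts. They were taken from log2 CPM with a prior count of 2, which sets much of the value where counts are low, as for *Foxd3* with 2 counts in NPD28 and 3 in NPD30. At E12.5 the *Foxd3* to *Ednrb* ratio was the steadiest, at a mean log2 ratio of -3.72 ± 0.21 (SD, n = 4), and the SDs of the 6 ratios lay between 0.21 and 0.67. At P0 the SDs were larger for every pair, from 0.87 to 2.35. The *Sox10* to *Foxd3* ratio had nearly the same mean at both stages, 2.90 ± 0.53 at E12.5 and 2.88 ± 0.87 at P0 (SD, n = 4), a difference of -0.02 (two-sided exact permutation test, p = 1) that was 0.33 with a prior count of 0.5. As 2 of the 4 *Foxd3* values at P0 were at or under the floor, the P0 mean is set in part by the prior count.

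The largest shift between stages was that of *Sox10* to *Ednrb*, a difference of -1.21 in mean log2 ratio (exact permutation p = 0.286), followed by *Foxd3* to *Ednrb* with -1.19 (p = 0.143). In the P0 litters NPD26, NPD27 and NPD28 *Sox10* was low relative to *Ednrb*, with log2 ratios of -2.90, -2.75 and -3.26, and in NPD30 it was high, at 0.79. After Benjamini-Hochberg adjustment over the 6 pairs, 5 adjusted p-values were 0.789 and 1 was 1. With 4 litters against 4, complete separation of all 3 ratios with *Ednrb* and of no other could not bring an adjusted p below 0.0571, so this adjusted test could not show that *Ednrb* alone moved by a different amount, and nothing is read from it on whether the 4 genes moved alike.

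**Figure D2:**
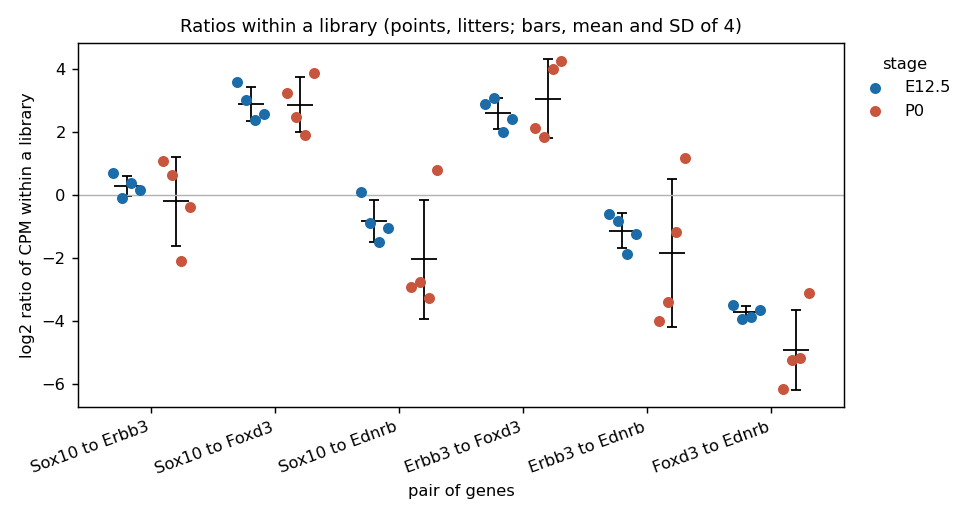
Log2 ratios of CPM between 2 of the 4 genes within each library (y axis), by pair of genes (x axis), with E12.5 litters in blue, P0 litters in red and black bars for the mean and SD of 4 litters. The P0 points spread more widely than the E12.5 points in every pair, and NPD30 stands apart in the *Sox10* to *Ednrb* ratio at 0.79.

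The patterns of the 4 genes over the 8 litters were set against each other by the root mean square (RMS) difference of log2 CPM, each gene centred on its own mean, where a small value means a like pattern. *Sox10* and *Foxd3*, both transcription factors, were the most alike pair (0.62), and the receptors *Erbb3* and *Ednrb* the least (1.52). *Ednrb* was closest to *Foxd3* (0.99) and *Erbb3* to *Foxd3* (0.85). All 8 litters enter these values, so the shared difference between stages is part of them.

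Among all tested genes, the pattern most like that of *Sox10* was that of *Tfap2a* (RMS difference 0.42 over 8 litters), an AP-2 factor of the early crest, which was lower at P0 (log2 fold change -3.89, edgeR adjusted p = 0.001). *Nr2f1*, an orphan nuclear receptor (0.47), and *Greb1* (0.50) followed. *Erbb3* was closest to *Zfp618* (0.29), *Mstn*, which encodes myostatin (0.35), and *Zfp423* (0.36), *Foxd3* to *Mir124-2hg* (0.50), *Spint1* (0.53) and *Tspan18* (0.53), and *Ednrb* to *Prox1* (0.65), *Adamts19* (0.69) and *H2-M5* (0.79). *Mstn* had means of 5.80 CPM at E12.5 and 0.112 at P0, under the floor, where the prior count sets much of its log2 CPM. Its log2 fold change was -5.52 (-6.49 without NPD30), beside -3.47 for *Erbb3*. No gene matched *Ednrb* as closely as the nearest genes matched the other 3. *Prox1*, a homeobox factor of lymphatic endothelium and of neural progenitors, was lower at P0 (log2 fold change -2.13, edgeR adjusted p = 0.0159), whereas *Adamts19* (-2.04, adjusted p = 0.122) and *H2-M5* (-2.40, adjusted p = 0.0933) did not pass, *H2-M5* passing only without NPD27 (-4.33, adjusted p = 0.0132). With a prior count of 0.5 in place of 2, 1 of the 3 nearest genes remained among the 3 nearest for each of the 4 genes.

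Most other genes that specify the crest fell with *Sox10* and *Foxd3*. Of 14 specifiers, all tested, 10 were lower at P0 (71.4%, beside 12.0% over all genes tested), none were higher and 4 did not pass. The median log2 fold change was -2.32 beside 0.04 over all genes. *Tfap2b*, an AP-2 factor of the crest and of sympathetic neurons, fell most, with 54.3, 46.0, 47.0 and 46.0 CPM in NDP10.2, NPD3, NPD4 and NPD9.2 and 1.26, 2.88, 0.118 and 0.152 CPM in NPD26, NPD27, NPD28 and NPD30 (log2 fold change -5.45 ± 0.71 SE, edgeR adjusted p = 0.000599, and -6.58 without NPD27). Like *Foxd3*, *Tfap2b* was at or under 3 counts in NPD28 and NPD30. *Ngfr*, the low-affinity neurotrophin receptor of crest cells and Schwann cell precursors, had 73.1, 55.4, 166 and 153 CPM at E12.5, with the same high pair of NPD4 and NPD9.2 as *Foxd3* and *Ednrb*, and 36.6, 27.5, 21.9 and 41.8 CPM at P0 (log2 fold change -1.81 ± 0.38 SE, adjusted p = 0.00525). *Sox9*, with the highest mean CPM of the list and also a factor of cartilage and notochord, had means of 613 ± 162 CPM at E12.5 and 261 ± 185 at P0 (SD, n = 4) and did not pass (adjusted p = 0.0636), though it did without NPD30 (log2 fold change -1.86, adjusted p = 0.0021).

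Among the specifiers named after their values were seen, *Pax3* (log2 fold change -3.54, edgeR adjusted p = 0.00288, and -4.33 without NPD27) and *Twist1* (-2.19, adjusted p = 0.00056) are also genes of somite or sclerotome mesenchyme. Also named so, *Snai1* (-0.24, adjusted p = 0.771), *Snai2* (-0.90, adjusted p = 0.0872) and *Ets1* (0.004, adjusted p = 0.994) did not pass. *Sox8*, also named so, was lower (-1.27, adjusted p = 0.0405) but lost its call without any litter other than NPD4 and NPD30. The count of 10 was 7 without NDP10.2, NPD9.2 or NPD26, and 8 without NPD28 or without the filter on low counts. Without both NDP10.2 and NPD9.2, 6 specifiers were lower at P0.

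**Figure D3:**
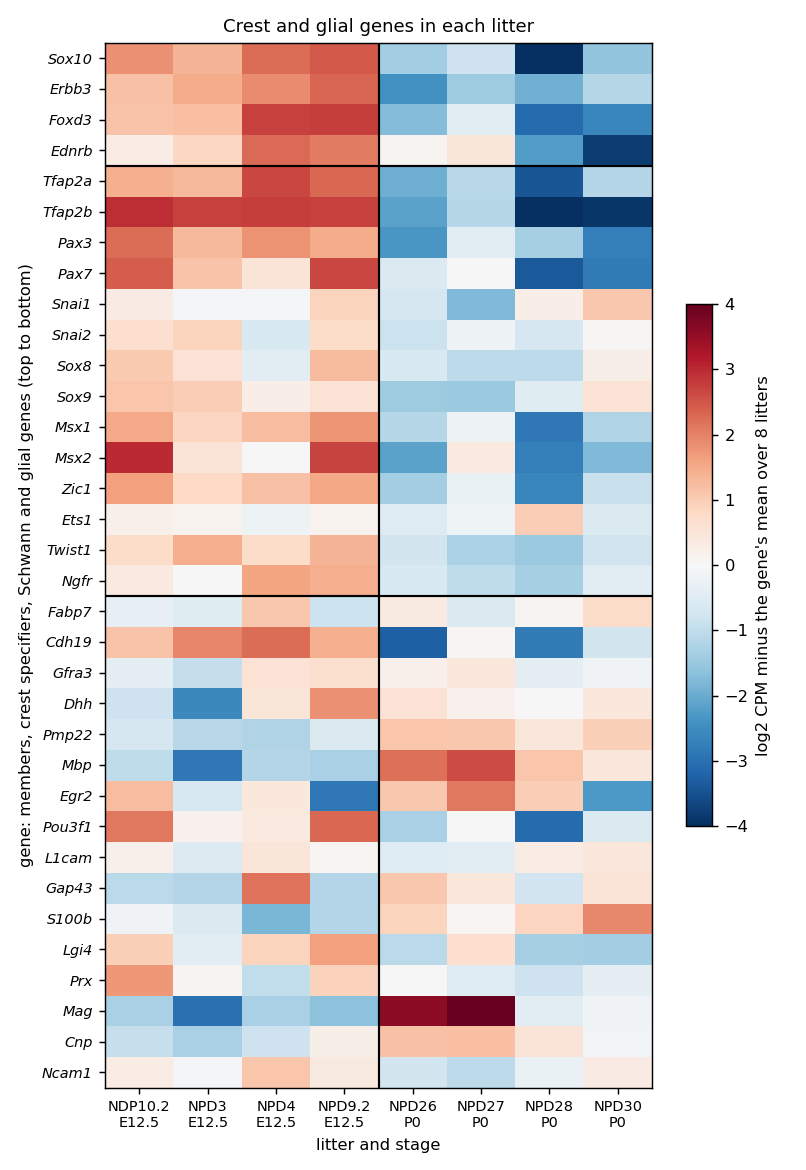
Log2 CPM of each gene minus its mean over the 8 litters, from blue (low) to red (high) with the scale ending at 4 in either direction, for *Sox10*, *Erbb3*, *Foxd3* and *Ednrb* (top block), 14 crest specifiers and 16 Schwann and glial genes (rows) by litter (columns). *Sox10*, *Erbb3*, *Foxd3* and most specifiers are red at E12.5 and blue at P0. *Ednrb* is blue at P0 only in NPD28 and NPD30, and near or above its mean in NPD26 and NPD27. *Mbp* is red in every P0 litter and *Mag* in NPD26 and NPD27.

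Of 16 Schwann precursor and glial genes 15 were tested, 2 were lower at P0, 4 were higher and 9 did not pass. The share lower, 13.3%, was near the 12.0% over all genes tested, and the share higher was 26.7% beside 16.0%, with a median log2 fold change of -0.09. *Cdh19*, a cadherin of Schwann cell precursors, fell most (log2 fold change -3.13 ± 0.89 SE, edgeR adjusted p = 0.0234), with an adjusted p of 0.0537 without NPD3 and a log2 fold change of -4.17 without NPD27. It had 6.37, 11.5, 14 and 7.87 CPM in NDP10.2, NPD3, NPD4 and NPD9.2, and 0, 2.88, 0.118 and 1.52 CPM in NPD26, NPD27, NPD28 and NPD30. *Pou3f1*, a factor of Schwann cells before they myelinate, was also lower (-2.66 ± 0.90 SE, adjusted p = 0.0483, and -3.29 without NPD27) and was named after its values were seen. It lost its call without NDP10.2, NPD9.2, NPD26, NPD28 or NPD30 (adjusted p from 0.0503 to 0.124). The count of 2 became 1 without NDP10.2, NPD3, NPD9.2, NPD26 or NPD28, and by limma-voom.

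*Mbp*, a protein of central and peripheral myelin, had the largest rise among the called genes of the list. It had 15.3, 4.10, 13.8 and 12.8 CPM in NDP10.2, NPD3, NPD4 and NPD9.2 and 148, 193, 68.2 and 43.1 CPM in NPD26, NPD27, NPD28 and NPD30 (log2 fold change 3.29 ± 0.55 SE, edgeR adjusted p = 0.00196). The 3 others that rose, named after their values were seen, were *Pmp22* (1.79), *S100b* (1.92) and *Cnp* (1.38), of which *Pmp22* and *S100b* are also transcribed outside glia, *S100b* in cartilage. *Cnp* lost its call without NDP10.2, NPD3, NPD4, NPD26 or NPD27 (adjusted p from 0.0504 to 0.0753). The genes of the list with the highest mean CPM, *Ncam1* (-0.82, adjusted p = 0.105) and *Fabp7* (0.18, adjusted p = 0.796), did not pass, and *Ncam1* passed only without NPD30 (-1.17, adjusted p = 0.0188). Without both NDP10.2 and NPD9.2, 0 genes of the list were lower at P0 by edgeR.

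In the P0 litters that were high for *Ednrb*, a myelin gene and a gene of the oligodendrocyte lineage were high as well. *Mag*, a glycoprotein of myelin, had 29.7 and 48.7 CPM in NPD26 and NPD27 and 1.53 and 1.97 in NPD28 and NPD30, and was at or under 0.725 CPM at E12.5. *Olig1*, a factor of the oligodendrocyte lineage, had 12.4 and 4.61 CPM in the high pair, 0 in NPD28 and 3.33 in NPD30, and was at or under 0.492 CPM at E12.5. Both genes were named after their values were seen and did not pass the filter on low counts. In the fit without the filter *Olig1* was called higher at P0 (edgeR adjusted p = 0.00377) and *Mag* was not (log2 fold change 5.28, adjusted p = 0.0694). Other glial genes were divided. *Mbp* and *Cnp* also had their highest P0 levels in NPD26 and NPD27. *Fabp7*, at 282 and 148 CPM beside 241 in NPD28 and 371 in NPD30, did not, nor did *S100b*, at 102 and 58.4 beside 100.5 and 212. The share of all genes with this high pair was not counted, so nothing is read from the shared order. The part of oligodendrocyte-lineage RNA in the *Ednrb* values was not tested. *Sox10* was also highest at P0 in NPD27 and NPD26, at 19.2 and 13.1 CPM beside 11.2 in NPD30 and 1.77 in NPD28. *Foxd3* had the same high pair, at 1.10 CPM in NPD26 and 3.17 in NPD27 beside 0.235 in NPD28 and 0.455 in NPD30. The crest specifier *Tfap2b* had it as well, at 1.26 and 2.88 CPM beside 0.118 and 0.152. *Erbb3* did not, and was lowest in NPD26.

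The 7 other ErbB receptors and neuregulins, the partners and ligands of *Erbb3* or its relatives, were all tested. Of these, 2 were lower at P0 (28.6%, beside 12.0% over all genes tested), none were higher and 5 did not pass. Their median log2 fold change was -0.57. *Erbb2*, the receptor that pairs with *Erbb3*, had 109, 58.5, 45.5 and 89.0 CPM in NDP10.2, NPD3, NPD4 and NPD9.2 and 10.4, 11.1, 31.2 and 43.4 CPM in NPD26, NPD27, NPD28 and NPD30 (log2 fold change -1.65 ± 0.49 SE, edgeR adjusted p = 0.0285). Its highest E12.5 litter, NDP10.2, was the lowest for *Erbb3*. *Erbb4*, another neuregulin receptor, fell most (-1.93 ± 0.40 SE, adjusted p = 0.0047), and *Egfr* did not pass (-0.59, adjusted p = 0.226) except without NPD30 (-0.96, adjusted p = 0.04). The ligand *Nrg1*, the neuregulin of axons and named after its values were seen, had 8.96, 4.29, 22.5 and 6.88 CPM at E12.5 and 7.08, 8.22, 6.24 and 7.58 at P0 and did not pass (-0.56, adjusted p = 0.416). *Erbb2* lost its call, leaving a count of 1, without NDP10.2, NPD9.2, NPD26 or NPD27 (adjusted p from 0.0626 to 0.0716), and the count was also 1 without the filter on low counts.

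Of 6 other endothelin genes 5 were tested, and 4 were lower at P0 (80%, beside 12.0% over all genes tested). None were higher and 1 did not pass, with a median log2 fold change of -2.11. *Edn3*, the ligand of *Ednrb* in melanocyte and enteric precursors, had 13.7, 10.3, 6.89 and 16.0 CPM in NDP10.2, NPD3, NPD4 and NPD9.2 and 1.26, 1.15, 0.942 and 1.06 CPM in NPD26, NPD27, NPD28 and NPD30 (log2 fold change -3.38 ± 0.43 SE, edgeR adjusted p = 0.000441). *Edn3* was even across the P0 litters, but at only 8, 8, 8 and 7 counts in NPD26, NPD27, NPD28 and NPD30. Counting error is large at such counts, so its evenness is not set against the spread of *Ednrb*. *Ednra*, the other endothelin receptor, known in crest mesenchyme and smooth muscle, fell from a mean of 38.3 ± 11.1 to 7.66 ± 1.33 CPM (SD, n = 4, log2 fold change -2.32, adjusted p = 0.000407). *Ece1*, which encodes an enzyme that cuts endothelins to their active form, fell as well (-1.25 ± 0.30 SE, adjusted p = 0.0106), as did the ligand *Edn1* (-2.11 ± 0.72 SE, adjusted p = 0.0485), which was named after its values were seen and lost its call without any litter other than NPD4 (adjusted p from 0.0544 to 0.112). Without both NDP10.2 and NPD9.2, 2 of the list were lower at P0.

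**Figure D4:**
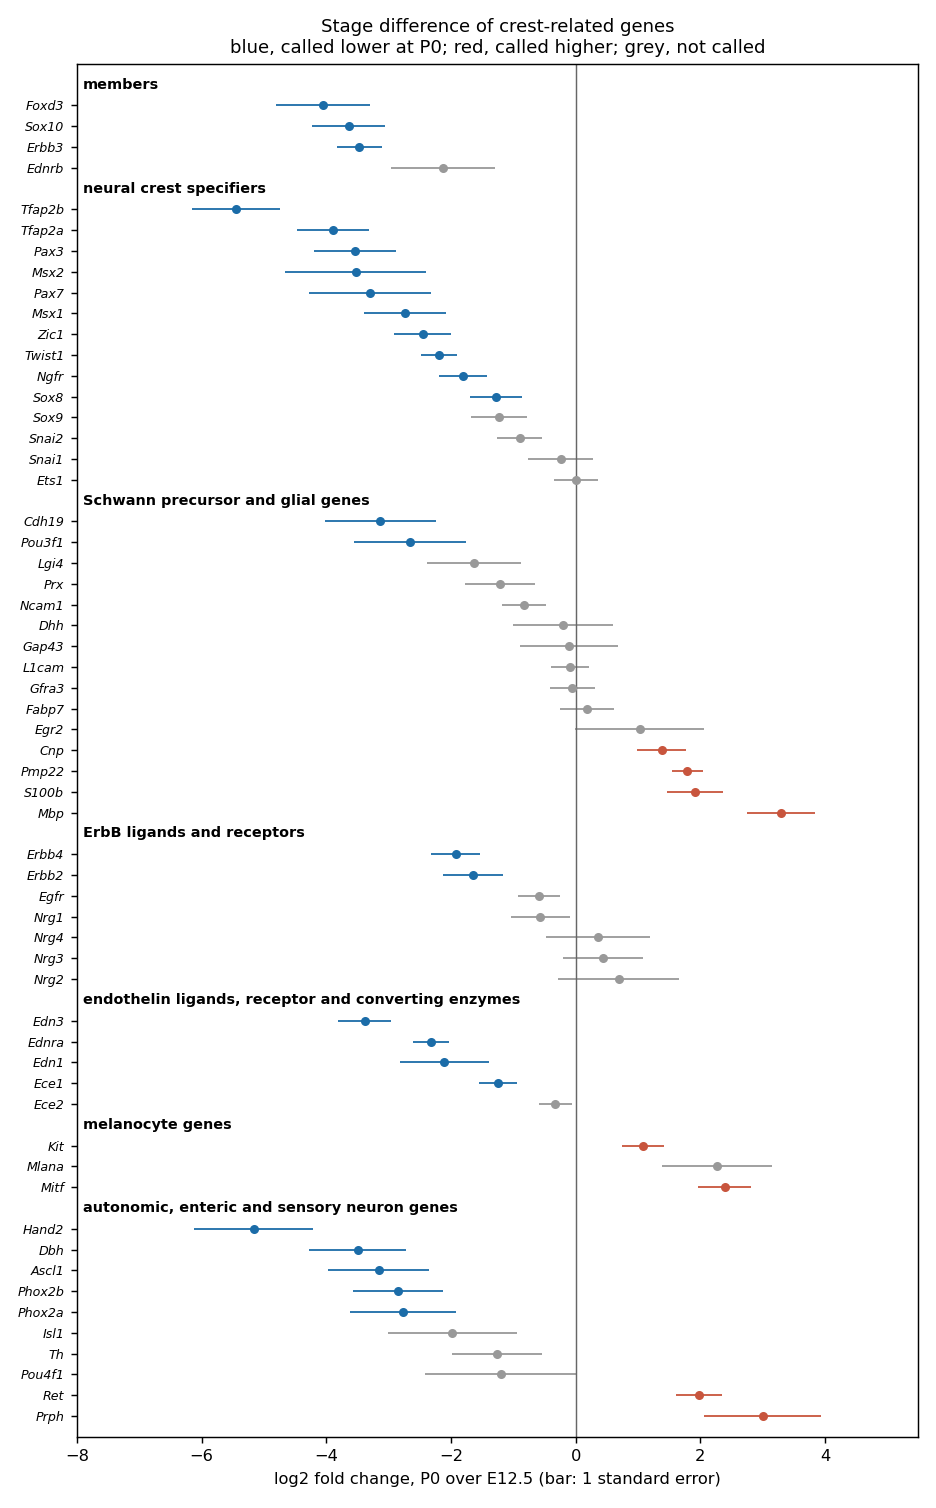
Log2 fold change of P0 over E12.5 (x axis) with bars of 1 standard error for *Sox10*, *Erbb3*, *Foxd3* and *Ednrb* (top, under members) and the tested genes of 6 related lists (y axis), in blue where called lower at P0, red where called higher and grey where not called. *Foxd3*, *Sox10* and *Erbb3* lie between -4.05 and -3.47, near the lower end of the crest specifiers, while the Schwann and glial genes lie on both sides of 0.

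Melanocyte genes mark a crest derivative that uses *Sox10* and *Ednrb*, and the list summed to 26.7 to 32.9 CPM at E12.5 and 81.1 to 105 CPM at P0, most of it from *Mitf* and *Kit*. Of 7 genes 3 were tested and 2 were higher at P0 (66.7%, beside 16.0% over all genes tested). They were *Mitf* (log2 fold change 2.39 ± 0.42 SE, edgeR adjusted p = 0.00229) and *Kit* (1.08 ± 0.34 SE, adjusted p = 0.0355), both of which are also transcribed in leukocyte lineages such as mast cells. *Kit* lost its call without any litter other than NPD4 and NPD27 (adjusted p from 0.0659 to 0.105), and the count of 2 became 1 without NPD26 or NPD30 and with upper quartile normalization. The pigment gene *Tyrp1*, named after its values were seen, had 0 counts in every E12.5 litter, where the floor of 3 counts was worth up to 0.738 CPM. It had 7.23, 4.61, 0.706 and 3.94 CPM in NPD26, NPD27, NPD28 and NPD30. It did not pass the filter on low counts, and in a fit without the filter, where 9.18% of genes were called higher at P0, it was called higher (edgeR adjusted p = 2.31e-06). The pigment genes *Dct* and *Pmel*, also named after their values were seen and not past the filter, had higher means at E12.5, at 1.72 ± 0.809 CPM against 0.265 ± 0.317 at P0 for *Dct* and 2.27 ± 1.19 against 0.967 ± 0.558 for *Pmel* (SD, n = 4). Neither was called without the filter (adjusted p = 0.128 and 0.366).

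Among neuronal genes of crest-derived ganglia, 10 of 12 genes were tested. Of these, 5 were lower at P0 (50%, beside 12.0% over all genes tested), 2 were higher (20%, near the 16.0%) and 3 did not pass. Their median log2 fold change was -2.37. *Hand2*, a factor of sympathetic and enteric neurons and of limb and heart mesenchyme, fell most (log2 fold change -5.16 ± 0.96 SE, edgeR adjusted p = 0.00291), from 7.55, 8, 3.99 and 19.4 CPM in NDP10.2, NPD3, NPD4 and NPD9.2 to 0.157, 0.865, 0 and 0 CPM in NPD26, NPD27, NPD28 and NPD30 (-7.15 without NPD27). *Prph*, which encodes the peripheral neuron filament peripherin, rose most (3 ± 0.94 SE on the log2 scale, adjusted p = 0.0378), from 4.48, 5.46, 104 and 12.1 CPM to 367, 212, 142 and 302 CPM in the same order of litters. The E12.5 value of 104 came from NPD4, without which the log2 fold change of *Prph* was 5.12, and the call was lost without any other litter (adjusted p from 0.0529 to 0.103). The other called riser was *Ret*, a receptor of enteric precursors and sensory neurons (1.98, adjusted p = 0.00307), named after its values were seen. The count of 2 higher genes became 3 without NPD4 and 1 without any other single litter, without both NDP10.2 and NPD9.2, or without the filter on low counts.

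NPD4, which with NPD9.2 was high for *Foxd3* and *Ednrb*, stood apart from the other E12.5 litters in sensory neuron genes. *Isl1*, a factor of sensory and motor neurons, had 392 CPM in NPD4 and 13.0 to 24.6 in the other E12.5 litters, and 44.8, 18.2, 14.2 and 37.5 CPM in NPD26, NPD27, NPD28 and NPD30 at P0. *Pou4f1*, a sensory neuron factor, had 210 CPM in NPD4 beside 2.83 to 4.67 and *Neurog1*, a factor of sensory neuron precursors, 43.9 beside 0.944 to 2.15, both named after their values were seen. Without NPD4 *Pou4f1* (log2 fold change 2.66, edgeR adjusted p = 0.00174) passed as higher at P0, where with it the gene did not pass (-1.20, adjusted p = 0.501). The list summed to 833 CPM in NPD4 and to 82.1 to 114 CPM in the other E12.5 litters. NPD9.2 had 114 CPM of this list and was as high as NPD4 for *Foxd3*, at 31.2 beside 30.9 CPM. Without NPD4 the log2 fold change of *Ednrb* was -1.80 (edgeR adjusted p = 0.191). The part of RNA from sensory ganglia in the *Foxd3* and *Ednrb* values of NPD4 was not tested.

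Markers of other cell types moved between the stages together with *Sox10*, *Erbb3* and *Foxd3*. Over all genes tested, 12.0% were lower at P0. All 7 sclerotome markers were lower at P0, with summed levels of 122 to 200 CPM at E12.5 and 5.06 to 16.3 CPM at P0, led by *Pax1* (log2 fold change -5.29 ± 0.37 SE, edgeR adjusted p = 3.43e-05) and *Meox1* (-4.64 ± 0.44 SE, adjusted p = 0.000112). Of 6 epithelial markers 5 (83.3%) were lower at P0, among them *Cdh1* (-2.28), *Esrp1* (-3.99) and *Cldn4* (-4.44, and -5.04 without NPD26), with sums of 48.8 to 123 CPM at E12.5 and 5.89 to 13.6 at P0, and 3 were lower without NPD9.2, NPD26 or NPD28. All 3 primitive erythroid markers were lower, with sums of 8120 to 32810 CPM at E12.5 and 2.12 to 7.07 at P0, where *Hbb-y* was at a mean of 3.15 and *Hba-x* at 1.06 CPM. The sum of *Sox10*, *Erbb3*, *Foxd3* and *Ednrb* was 321 to 779 CPM at E12.5 and 30.3 to 166 at P0. The part of RNA from cells around the notochord in these differences was not tested.

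All 7 leukocyte markers were higher at P0, beside 16.0% of all genes tested. Their sums were 51.5 to 101 CPM at E12.5 and 2425, 2933, 3445 and 285 CPM in NPD26, NPD27, NPD28 and NPD30. NPD28 was highest for this list and lowest at P0 for *Sox10* and *Foxd3*, while NPD30 was lowest for the list and lowest for *Ednrb*. The log2 fold changes were 4.92 for *Laptm5*, 4.93 for *Lcp1* and 6.14 for *Ptprc* (5.43 without NPD28), and *Laptm5* had 39.7 CPM in NPD30. Endothelial markers, a cell type in which *Ednrb* is also transcribed, summed to 86.3 to 182 CPM at E12.5 and 80.7 to 151 at P0. Of these 8 genes, *Emcn* was called lower (-1.76, adjusted p = 0.0452), *Flt1* higher (1.85, adjusted p = 0.00875) and 6 including *Cdh5* were not called, with both calls lost without both NDP10.2 and NPD9.2. Each call is 12.5% of the list, near the 12.0% called lower and the 16.0% called higher over all genes tested. *Emcn* also lost its call without any litter other than NDP10.2 and NPD27 (adjusted p from 0.0532 to 0.125), and without NPD27 its log2 fold change was -2.58 and *Cdh5* was lower at P0 (-1.98, adjusted p = 0.00232). At P0 *Cdh5* was highest in NPD27, at 45.6 CPM beside 8.24 to 12.7 in the others, and NPD27 was also the highest P0 litter for *Ednrb*. The part of leukocyte and endothelial RNA in the values of the 4 genes was not tested.

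Of 8 notochord markers 7 were tested, and *Shh* was lower at P0 (14.3%, near the 12.0% over all genes). *Cd24a* (log2 fold change 1.33, edgeR adjusted p = 0.0224) and *Krt19* (1.74, adjusted p = 0.0267) were higher (28.6%, beside 16.0%) and 4 including *T* did not pass. The list summed to 1617 to 3769 CPM at E12.5 and 1949 to 6883 at P0. The E12.5 litters with the lowest notochord sums, NPD4 with 1617 and NPD9.2 with 1792 CPM, were those with the highest levels of each of *Sox10*, *Erbb3*, *Foxd3* and *Ednrb*. Other lists did not follow this pair at E12.5. The sclerotome sum was lowest in NPD4 (122 CPM) and highest in NPD9.2 (200 CPM), and the specifier sum was lowest in NPD4 (876 CPM). Whether the notochord sums and the levels of the 4 genes are linked was not tested. *Cd24a* lost its call without NDP10.2 or NPD9.2 and *Krt19* without NPD3, NPD9.2, NPD26 or NPD30 (adjusted p from 0.0507 to 0.0802), so that neither was called without NPD9.2. Of the oligodendrocyte and ventral neural tube genes 3 of 8 were tested and *Foxa1*, a factor of floor plate and notochord, was lower at P0 (-2.23, adjusted p = 0.00682). It was 33.3% of those tested, beside 12.0% over all genes, while *Pax6* did not pass (-0.17, adjusted p = 0.898).

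**Figure D5:**
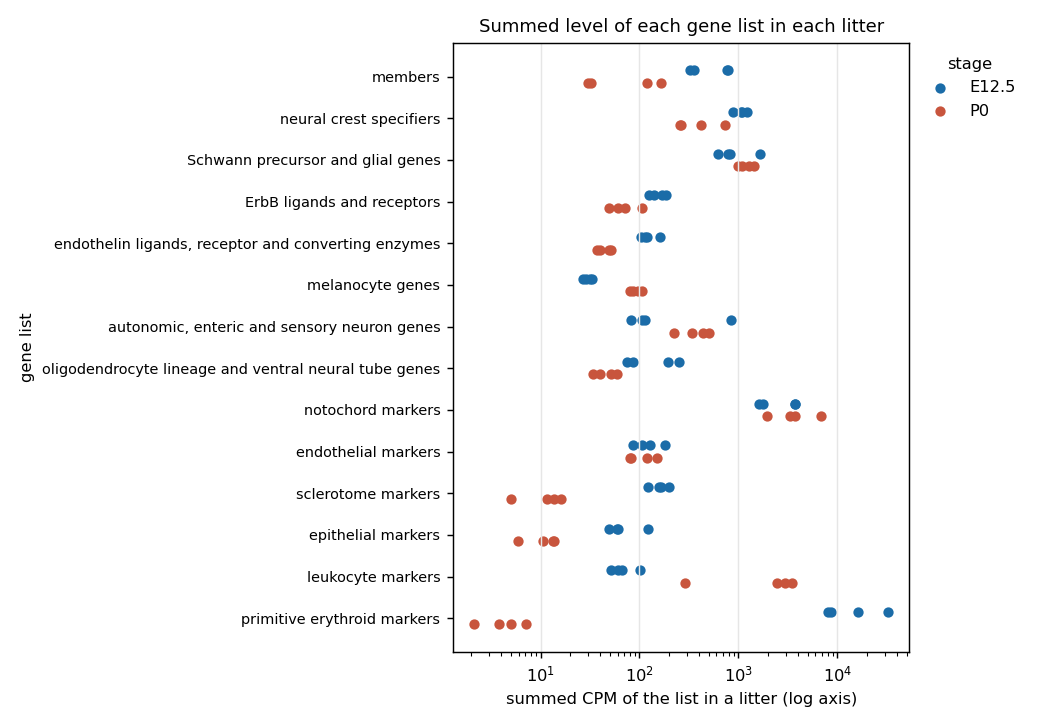
Summed CPM of each gene list (x axis, log scale) in each litter, E12.5 in blue and P0 in red, for *Sox10*, *Erbb3*, *Foxd3* and *Ednrb* (members) and 13 other lists (y axis). The members sum to 321 to 779 CPM at E12.5 and 30.3 to 166 CPM at P0 without overlap. The crest specifier, ErbB, endothelin, oligodendrocyte and ventral neural tube, sclerotome, epithelial and erythroid lists are also higher at E12.5 without overlap. *Foxa1* makes up most of the oligodendrocyte and ventral neural tube sum at E12.5 (mean 144 CPM, and 30.5 at P0). *Olig1* and *Olig2* had higher means at P0, at 5.09 and 1.99 CPM beside 0.242 and 0.153. *Sox9*, which overlapped between stages and was not called, is the largest part of the specifier sum. Leukocyte and melanocyte lists move the other way, and the remaining lists overlap.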

How the data were processed

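RNA was sequenced from 4 litters at E12.5 and 4 at P0. The authors aligned the reads with STAR (2.4.0j per the submitters' processing notes) to GRCm38 and deposited raw counts per Gencode M4 gene from htseq-count, without normalization. Counting mode and strand are not given in the sources used here. Groups follow the age in the labels.

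Counts were tested in R 4.3.3 with edgeR 4.0.16 (TMM, filterByExpr at a minimum count of 10 and total of 15, robust quasi-likelihood F-test, Benjamini-Hochberg adjustment over 15467 genes), after the method was tested on simulated data. The study itself used DESeq2. CPM uses TMM library sizes, and log2 CPM adds a prior count of 2. Exon lengths are from Gencode M21, a later annotation. Reads on genes were 22.6% to 33.7% (E12.5) and 30.9% to 34.8% (P0) of those tallied, and ambiguous reads 10.6% to 17.5% and 7.07% to 10.5%.

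The 4 genes and 13 lists were chosen with earlier results of these data known, and some genes of the lists are not reported here and are not in their counts or sums. Named were the 4 genes, the 2 most abundant members of each list, its called members with the largest rise and fall, and the 3 genes most like each of the 4. Alternatives used DESeq2 1.42.0, limma 3.58.1, other normalizations, filters and depths, and litters left out.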

Additional observations from a re-analysis of the deposited data

Results flagged for a closer look

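In 10 of 182 groups of 4 litters examined, 1 litter lay further from the others than Dixon's 95% critical value allows, a mark that chance passes in about 1 of 20 groups. The only one among values of the 4 genes was the log2 ratio of *Sox10* to *Ednrb* at P0, at 0.79 in NPD30. In NPD4 at E12.5 the autonomic, enteric and sensory neuron genes summed to 833 CPM, with *Pou4f1* at 210 and *Ret* at 28 CPM. In NPD30 at P0 the leukocyte markers summed to 285 CPM, with *Laptm5* at 39.7 CPM. The others were *Tfap2b* at 54.3 CPM in NDP10.2 (E12.5), *Mbp* at 4.10 CPM in NPD3 (E12.5), *Ptprc* at 5.16 CPM in NPD9.2 (E12.5) and *Nr2f1* at 1.18 CPM in NPD28 (P0).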

How the results depend on the processing

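*Sox10*, *Erbb3* and *Foxd3* were called lower at P0 in all 10 other settings and with each of the 8 litters left out. Their log2 fold changes over the other settings ran from -4.09 to -3.51, from -3.60 to -3.43 and from -4.46 to -4.02. *Ednrb* was called in 2 of the 10, by DESeq2's Wald test (log2 fold change -2.14, adjusted p = 0.0136) and limma-voom (-2.74, adjusted p = 0.0354), and in 0 of the 8 fits that left a litter out. Over the 10 settings its adjusted p ran from 0.0136 to 0.226. Without both NDP10.2 and NPD9.2, 2581 genes were called between stages in place of 4321, with fewer samples in the fit, and the lower counts were 6 specifiers in place of 10, 0 Schwann and glial genes in place of 2, 1 ErbB gene in place of 2, 2 endothelin genes in place of 4, 3 neuronal genes in place of 5, 4 sclerotome markers in place of 7 and 3 epithelial markers in place of 5. The *Sox10* to *Foxd3* ratio difference of -0.02 turned to 0.33 with a prior count of 0.5 and ran from -0.36 to 0.31 with a litter left out, and that of *Sox10* to *Erbb3* (-0.49) ran from -0.91 to 0.15, positive only without NPD28. The cause was not tested. With counts thinned to the smallest library or by limma-voom, 1 Schwann and glial gene was lower. Epithelial markers called lower were 3 without NPD9.2, NPD26 or NPD28, and endothelial markers called lower (1) ran from 0 to 3. Notochord markers called higher (2) were 0 without NPD9.2 or without both NDP10.2 and NPD9.2, and 2 were lower without NPD30. Without the filter on low counts 2 oligodendrocyte-lineage genes were higher at P0, and 1 without NPD28. No paired analysis was possible because the labels give the litters of the 2 stages no shared numbers. Depth limits *Foxd3* at P0, where 2 litters were at or under 3 counts.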
